A study of Homo sapiens with 8 samples.

Results

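Across 8 two-colour microarrays, 10 protease-related genes were followed: the matrix metalloproteases MMP1, MMP2, MMP3, MMP10 and MMP14, the membrane proteases ADAM8, ADAM9, ADAM10 and ADAM17, and the metalloprotease inhibitor TIMP1. The 10 genes, of 43317 gene names on the array, were taken by name and were measured by 13 probes. They were selected on the Cy5 over Cy3 ratios of these same arrays, those of ADAM8 and MMP1 on the miR-140-5p array included. The mock levels chose them in part as well, so every ratio and mock level below is a description and carries no test. Each array compared RNA of treated cells, labelled with Cy5, with RNA of mock cells, labelled with Cy3, and all 8 shared 1 slide and 1 scan. PC3 cells, an androgen-independent prostate cancer line, received bisamide for 24 h or 48 h, or miR-125b-1-3p. C4-2 cells, a prostate cancer line derived from LNCaP, received miR-199-3p, 786-O renal carcinoma cells received miR-532-5p or miR-532-3p, and T24 bladder cancer cells received miR-140-5p or miR-140-3p. The labels describe the mock cells as having had no transfection, and they list bisamide, a small molecule, under the same heading as the miRNAs. As RNA of whole cultures was measured, fewer expressing cells and less RNA per cell cannot be told apart. Each group held 1 array, so no difference between treated and mock cells has a replicate check. No array had its dyes swapped, so an effect of the dye on a given probe and an effect of the treatment cannot be told apart. By the codes the deposited files carry, both 786-O arrays had 1 control code, both T24 arrays had 1, and the 3 PC3 arrays had 3, so ratios within 786-O and within T24 may share their control RNA.

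Matrix metalloproteases are zinc proteases that cleave collagen and other parts of the extracellular matrix, and most are secreted as inactive precursors that another protease must open. ADAM proteases sit in the plasma membrane and release the outer parts of growth factors, cytokines and adhesion molecules from the cell surface. Tissue inhibitors of metalloproteases, the TIMPs, bind the active site of both kinds of enzyme. In carcinoma cells these genes are known for their part in invasion through the matrix and in growth factor release.

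The 6 arrays with miRNAs are described beside the mature sequences given by RefSeq (GRCh38.p14). They are shown because the seed, bases 2 to 8 from the 5′ end and printed in capitals, is the stretch with which a miRNA pairs with its targets. The label miR-199-3p does not say which of miR-199a-3p and miR-199b-3p was meant, and both have the same mature sequence.
miR-199-3p: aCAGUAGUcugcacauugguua
miR-125b-1-3p: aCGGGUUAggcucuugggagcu
miR-532-5p: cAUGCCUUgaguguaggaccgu
miR-532-3p: cCUCCCACacccaaggcuugca
miR-140-5p: cAGUGGUUuuacccuaugguag
miR-140-3p: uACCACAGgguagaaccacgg
No seed was shared between any 2 of the 6.

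The depth of a two-colour array is set by its signal over background. The median probe had a raw Cy3 intensity of 22.7 to 24.9, and in Cy5 the median was 18.7 to 23.1. No spot was saturated, and 15442 to 19241 genes per array were well above background in both channels. Of the 80 values of the 10 genes, 48 were well above background in both channels, 11 in 1 channel and 21 in neither. A log2 ratio below is log2 of Cy5 over Cy3 after background correction and loess normalization, for the brightest probe of a gene, and is positive where treated cells were higher. For 300 probes printed in 10 spots per array, the median SD between spots was 0.039 to 0.053, which measures the spread on an array and not between cultures. The labelled cell types were set against markers in the mock channel. KLK3, which encodes prostate-specific antigen, had a raw Cy3 intensity of 13592 in C4-2 and 21.4 to 22.6, not well above background, on the 7 other arrays. PAX8, a factor of kidney epithelium, read 235 and 239 in 786-O but 390 and 423 in T24, so it did not set 786-O apart.

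A log2 ratio past 1.5 in either direction was counted as a large difference. By that size, 1 of the 48 measured values was large, that of ADAM8 with miR-140-5p. Of all genes measured in both channels, the share past 1.5 in T24 was 0.142% with miR-140-5p, while miR-140-3p gave 0.0114%. In PC3 it was 0.078% at 24 h and 0.0368% at 48 h of bisamide, and 0.0107% with miR-125b-1-3p. It was 0.121% in C4-2, and in 786-O 0.102% with miR-532-5p, while miR-532-3p gave 0.149%. With the lower size of 1.0, MMP1 at 24 h of bisamide was counted as well. The shares of all genes past 1.0 were 0.197% and 0.116% at 24 h and 48 h of bisamide, and 0.177% on the third PC3 array. They were 0.65% in C4-2, 0.804% and 0.641% in 786-O for the 5p and the 3p strand of miR-532, and 0.443% and 0.177% in T24 for those of miR-140. Since the choice of genes used these ratios, nothing is read from their counts against these shares.

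**Figure D1:**
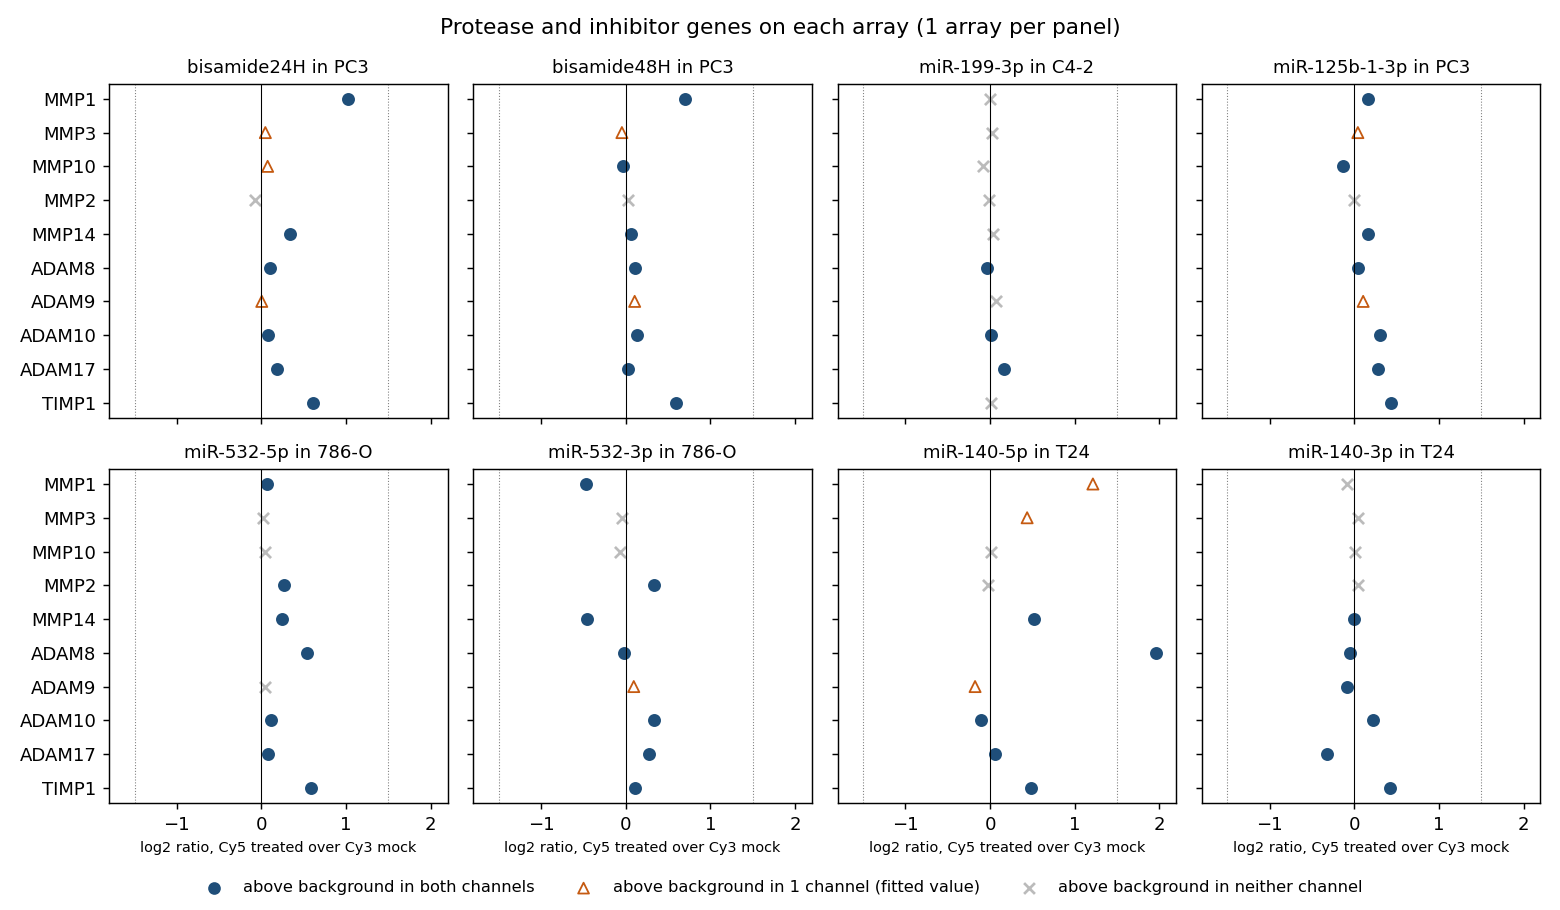
Log2 ratio of Cy5 (treated) over Cy3 (mock) on the horizontal axis for the 10 genes, 1 panel per array and 1 array per group; filled circles were above background in both channels, triangles in 1 and crosses in neither, and dotted lines mark 1.5 and -1.5. ADAM8 with miR-140-5p, at 1.96, is the 1 filled circle beyond a dotted line, and MMP1 lies at 1.02 and 0.70 on the bisamide arrays.

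MMP1, the interstitial collagenase that cleaves fibrillar collagen, was well above background in both channels in PC3 and 786-O. Its probe lies at chr11:102660697-102660756 (GRCh37, as the files give it) and was printed in 10 spots. At 24 h of bisamide its raw intensity was 218 in mock and 807 in treated PC3 cells, a log2 ratio of 1.02 with an SD of 0.052 between the 10 spots. At 48 h the intensities were 298 and 855 and the log2 ratio 0.70, with an SD of 0.042 between spots. The third PC3 array, with miR-125b-1-3p, had the highest MMP1 signal in both channels, 765 in mock and 1462 in treated cells, and a log2 ratio of 0.16. In 786-O the mock intensities were 107 and 106. The ratio there was 0.07 with miR-532-5p and -0.47 with miR-532-3p. MMP1 was thus higher than mock on both bisamide arrays, and lower than mock by over 0.1 on 1 array, that of miR-532-3p.

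In T24 cells MMP1 was near the limit of detection. With miR-140-5p the raw intensities were 25.6 in mock and 132 in treated cells, and 3 of 10 spots were well above background in Cy3 against 10 of 10 in Cy5. Since the mock value was only a bound, treated cells were at least 2.32-fold higher, the Cy5 signal being set against the higher of the probe's own Cy3 signal and the dimmest Cy3 signal called well above background. On the log2 scale that bound is the fitted ratio itself, 1.22. The scanner's own log2 ratio was 3.91, with the mock near background. Of 3232 genes detected in 1 channel on that array, 2, or 0.0619%, had a bound past 1.0 on the log2 scale. With miR-140-3p, in the same line, the intensities were 26.3 and 20.5 and neither channel was well above background. MMP1 was also below background in both channels of the C4-2 array, at 20.6 and 16.4.

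MMP3 and MMP10, the stromelysins, cleave proteoglycans and can activate procollagenase, and their genes lie on chromosome 11 as that of MMP1 does. MMP3 (chr11:102706694-102706753) was well above background in Cy3 on none of the 8 arrays, with raw mock intensities of 19.2 to 24.5. It passed in Cy5 alone on 4 arrays, the 3 of PC3 and that of miR-140-5p. With miR-140-5p its treated intensity was 43.1 against 21.0 in mock, at least 1.30-fold higher, and with miR-140-3p it was 18.6 against 21.3. On the 3 PC3 arrays the treated MMP3 intensity was 22.2 to 23.9. MMP10 (chr11:102641405-102641464) was measured in both channels on 2 arrays, both of PC3. Its log2 ratio was -0.03 at 48 h of bisamide, with intensities of 28.3 and 28.2, and -0.13 with miR-125b-1-3p, with intensities of 48.4 and 55.8. MMP10 was not well above background in any channel of C4-2, 786-O or T24.

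MMP2, gelatinase A, which degrades basement membrane collagen and is opened at the cell surface by MMP14, was detected in 786-O alone among the 4 lines. Its probe (chr16:55540518-55540577) gave raw intensities of 65.1 in mock and 73.6 in treated cells with miR-532-5p, a log2 ratio of 0.26. With miR-532-3p they were 72.0 and 119, a log2 ratio of 0.33. The other 6 arrays gave 17.9 to 21.9 in mock, none of them well above background.

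MMP14, the membrane-type protease MT1-MMP, was measured on 7 arrays and was not well above background in C4-2, where its mock intensity was 19.4. Its probe lies at chr14:23315791-23315850. In 786-O its ratio had opposite signs with the pair of miRNAs from 1 hairpin. With miR-532-5p the intensities were 142 in mock and 152 in treated cells and the log2 ratio 0.25. With miR-532-3p they were 164 and 139 and the log2 ratio -0.46. In T24 the mock intensities were 91.0 and 94.3, and the log2 ratio was 0.52 for the 5p strand of miR-140 and -0.01 for the 3p strand. In PC3 the mock intensities were 128, 94.4 and 166. The log2 ratio was 0.34 and 0.06 at 24 h and 48 h of bisamide and 0.17 with miR-125b-1-3p. MMP14 was therefore below mock by over 0.1 with miR-532-3p alone, and above it by over 0.1 on 4 arrays. The arrays of 48 h bisamide and of miR-140-3p lay within 0.1 of zero.

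ADAM8, a protease of myeloid cells that is also made by some carcinomas, was detected on all 8 arrays by its brightest probe. With miR-140-5p its raw intensity was 65.5 in mock and 517 in treated T24 cells, and the log2 ratio of 1.96 ranked 2 among 17624 genes on that array. With miR-140-3p the mock intensity was 63.0, the treated intensity 84.4 and the log2 ratio -0.05. In 786-O the mock intensities were 56.8 and 56.4, and the log2 ratio was 0.53 with miR-532-5p and -0.02 with miR-532-3p. The value with miR-532-5p was 1.04 to 1.14 by plain background subtraction, without the offset or by the scanner's own ratio, and 0.21 as the mean over probes. In C4-2 the intensities were 91.3 and 122 and the ratio -0.03. In PC3 the gene was brightest, at 494, 576 and 1527 in mock and 932, 1086 and 2765 in treated cells for 24 h bisamide, 48 h bisamide and miR-125b-1-3p. The PC3 ratios were 0.10, 0.10 and 0.04. Thus on 6 of the 8 arrays ADAM8 lay between -0.05 and 0.10, at mock intensities from 56.4 to 1527.

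The other 2 ADAM8 probes did not follow the brightest one, and they are annotated to another ADAM8 transcript than it is. All 3 were designed sequences of 60 bases, and the first 30 of each are given because the call rests on 1 of them. The capitals mark the 7 bases that pair with the miR-532-3p seed.
ADAM8 brightest probe: tatGTGGGAGagtcagctatcttgtctggt
ADAM8 second probe: tgcagacggccgggacctgcggggtcagcg
ADAM8 dimmest probe: acaggtgggcaggctgccgaggagtcctgc
The brightest probe lies at chr10:135075992-135076051, the second at chr10:135086790-135086849 and the dimmest at chr10:135084254-135084387 (GRCh37). ADAM8 is read from the minus strand here, so the brightest probe is the one nearest the 3′ end. The dimmest spans 134 bases of the genome with its 60 bases, so it crosses an intron. In order of brightness their GC content was 45%, 75% and 60%. The second probe was well above background in both channels of every array, but its mock intensity was only 27.1 to 38.6, and its log2 ratio with miR-140-5p was 0.07. The dimmest probe was not well above background with miR-140-5p, and its ratio there was 0.02. When the 3 probes were averaged, the ADAM8 value with miR-140-5p was 0.68 and the gene was no longer counted as large. The other 2 probes were dim on every array, so an average with them is pulled towards their values and cannot decide the call.

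**Figure D2:**
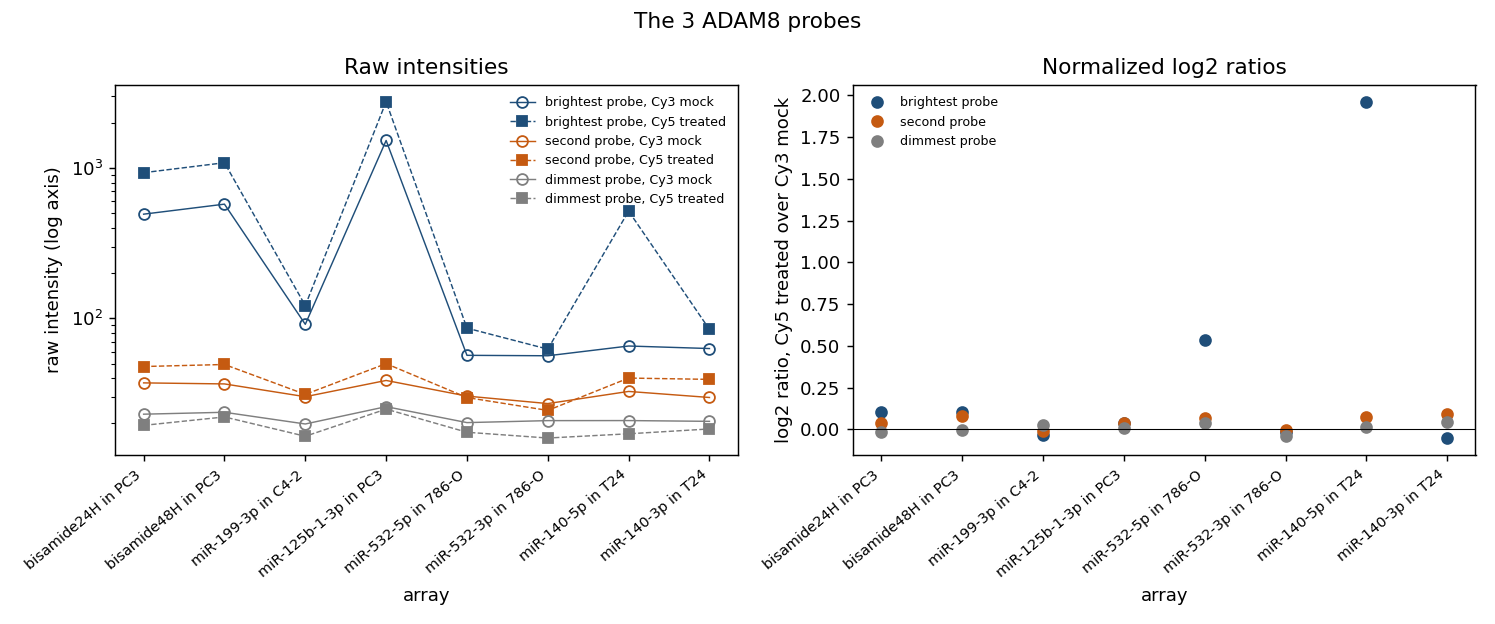
Left, raw intensity of the 3 ADAM8 probes on a log axis, open circles for Cy3 (mock) and squares for Cy5 (treated), by array; right, their normalized log2 ratios, 1 point per probe and array. On the miR-140-5p array the brightest probe stands at 1.96 and the others at 0.07 and 0.02.

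ADAM10 and ADAM17 are the main sheddases of epithelial cells: ADAM10 releases Notch, N-cadherin and CD44 ectodomains among others, and ADAM17 releases tumour necrosis factor and several EGF receptor ligands. Both were measured on all 8 arrays. ADAM10 (chr15:58889401-58889460) lay between -0.10 and 0.33. Its lowest value was that of miR-140-5p, and its highest values were 0.33 with miR-532-3p and 0.30 with miR-125b-1-3p. With miR-140-3p it was 0.22. A second ADAM10 probe gave -0.05 for the 5p strand of miR-140 and 0.33 for the 3p strand, so the order of that pair was the same with both probes. At 24 h and 48 h of bisamide the second probe read 0.12 and 0.08 against 0.08 and 0.14 for the first. ADAM17 (chr2:9630133-9630192) lay between -0.32 and 0.27. Its lowest value was with miR-140-3p, where the intensities were 123 in mock and 143 in treated cells. On the miR-140-5p array they were 118 and 182 and the ratio was 0.06. The sign of the ADAM17 value with miR-140-3p depends on the scaling, being 0.15 when each array was centred on its median, a scaling under which the median of all genes on that array stood at 0.45.

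ADAM9, a widely expressed ADAM that is opened by furin-like convertases, was near background throughout. It was measured in both channels on the miR-140-3p array alone, at intensities of 30.3 and 25.2 and a log2 ratio of -0.09. In 1 channel it was detected on 5 arrays, and no lower bound there exceeded 1.13-fold. A lower bound sets no upper limit on a difference. By the scanner's own log2 ratio those 5 arrays ran from -2.65 with miR-140-5p to 1.28 at 48 h of bisamide.

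TIMP1, the secreted inhibitor of most matrix metalloproteases and of ADAM10, was above mock on all 7 arrays that measured it and was not well above background in C4-2. Its probe lies at chrX:47444666-47444725. In PC3 its intensity was 739 and 649 in the bisamide mocks and 2069 and 1768 in the treated cells, with log2 ratios of 0.61 and 0.60. The miR-125b-1-3p array gave 629 and 1449 and a ratio of 0.43. In 786-O the ratios were 0.58 with miR-532-5p and 0.11 with miR-532-3p, from mock intensities of 339 and 353. In T24 they were 0.48 for the 5p strand of miR-140 and 0.42 for the 3p strand, from 444 and 465. Of the 10 genes, it was the only one measured on 7 or more arrays that had no value below 0. ADAM10 and ADAM17 came close, each above 0 on 7 arrays and below it on 1. PLAUR, the urokinase receptor, was also above 0 on every array that measured it, between 0.17 and 0.96. Against the median of the other arrays, the TIMP1 ratio was 0.18 and 0.17 on the bisamide arrays, 0.15 for miR-532-5p, 0.05 for miR-140-5p, -0.38 for miR-532-3p, -0.05 on the third PC3 array and -0.06 on the miR-140-3p array. The part of the dye in the TIMP1 values was not tested.

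Taken over the genes measured on each array, the median log2 ratio was 0.26 and 0.10 at 24 h and 48 h of bisamide (6 and 7 genes) and 0.17 on the third PC3 array (7 genes). In 786-O it was 0.25 for miR-532-5p and 0.11 for the 3p strand (7 genes each). In T24 it was 0.48 for miR-140-5p (5 genes) and -0.03 for the 3p strand (6 genes), and in C4-2 it was 0.01 (3 genes). The medians of all genes measured on the 8 arrays were between 0.00 and 0.02. Above 0 were 6 of 6 and 6 of 7 measured members at 24 h and 48 h of bisamide. MMP10 was the exception at 48 h. This was not particular to bisamide, as 7 of 7 were above 0 with miR-532-5p and 6 of 7 with miR-125b-1-3p. It was 4 of 7 with miR-532-3p, 4 of 5 with miR-140-5p, 2 of 6 with miR-140-3p and 2 of 3 in C4-2. Of all genes measured, 49.97% to 54.56% were above 0 per array. The choice of genes used these ratios, so nothing is read from these counts against these shares. The genes that passed a channel filter are a subset of the 10, so these medians and counts describe only those measured.

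The mock channel gives the level of each gene in the 4 lines, and is given as a log2 level after quantile normalization over the 8 arrays. There were 8 genes well above background in every mock of at least 1 line. Of these, 4 differed by over 2 on that scale between the highest and the lowest line, beside 7.98% of the 20452 genes compared in the same way. As the mock levels chose the members in part, nothing is read from this count against that share. ADAM8 was the one of these 4 that was detected in all lines, with PC3 at 8.50 and 8.77 in the bisamide mocks and 1.37 above their mean in the third, C4-2 at 7.49, 786-O at 6.86 on both arrays, and T24 at 6.50 and 6.56. Its highest and lowest line means were 2.56 apart. As the mean over its probes they were 0.89 apart, short of the 2 used for the call. The other 2 probes were at 5.71 to 6.11 on all arrays. That mean therefore shrinks whatever the brightest probe reads, and it cannot decide the call, which rests on 1 probe. For TIMP1, MMP14 and MMP1 the lowest line was C4-2, where the mock was not well above background, so the size of their differences is not given and is not ranked. TIMP1 was at 9.23 and 9.29 in 786-O, 8.76 to 9.03 in PC3, 8.72 and 8.75 in T24, and 5.78 in C4-2. The PC3 and T24 values adjoin each other, so their order is not larger than the spread between PC3 mocks. MMP14 was at 8.08 and 8.29 in 786-O, 6.74 to 7.21 in PC3, 6.85 on both T24 arrays, inside the PC3 range, and 5.72 in C4-2. MMP1 was at 7.55 to 9.02 in PC3, 7.67 and 7.68 in 786-O, inside the PC3 range, 5.88 on both T24 arrays and 5.75 in C4-2, not well above background in the last pair of lines. MMP2 was at 7.02 and 7.20 in 786-O and not well above background elsewhere. The line means of ADAM10 and ADAM17, both detected in all 4 lines, were 0.77 and 0.73 apart. These differences depend on the scale, those of ADAM8, ADAM10 and ADAM17 being 3.82, 1.32 and 1.45 with the scanner's processed signal. So the collagenase, gelatinase A, MT1-MMP and the inhibitor were each undetected in the C4-2 mock, while ADAM8, ADAM10 and ADAM17 were detected in all 4 lines.

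**Figure D3:**
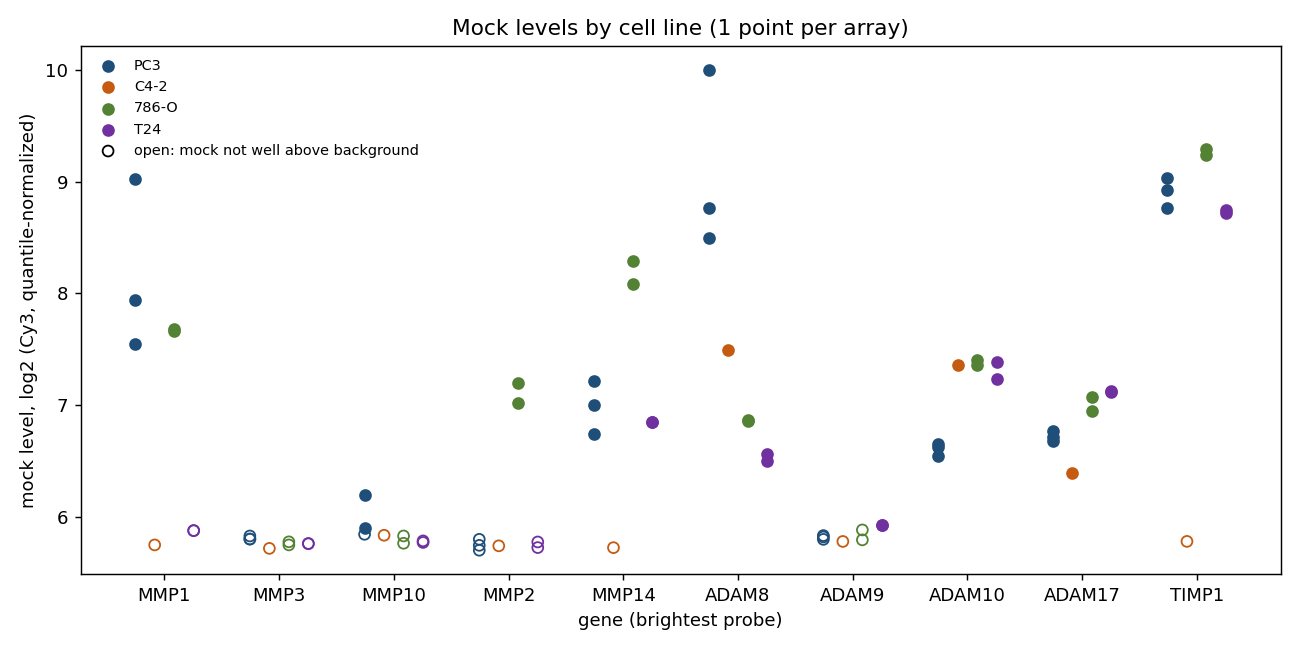
Log2 mock level (Cy3, quantile-normalized) on the vertical axis for the brightest probe of each gene, 1 point per array coloured by cell line, open where the mock was not well above background. C4-2 is open for MMP1, MMP2, MMP14 and TIMP1, and the highest PC3 points of MMP1 and ADAM8 lie 1.28 and 1.37 above the mean of the other 2.

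The 3 PC3 mocks were unlike each other in MMP1 and ADAM8. The mock of the miR-125b-1-3p array was higher than the mean of the bisamide mocks by 1.28 for MMP1 and by 1.37 for ADAM8 on the log2 scale, ranks 34 and 27 among 17772 genes, of which 79, or 0.445%, were past 1 in either direction. For MMP14 the difference was 0.34, for ADAM10 and ADAM17 0.07 each, and for TIMP1 -0.22. The 3 mocks carried 3 control codes, and whether they differ in culture, time or handling was not tested. Between the arrays of one line the median size of the mock difference over all genes was 0.039 to 0.092.

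Short sequences that pair with a seed were searched in the probe sequences, as the 7 bases complementary to bases 2 to 8 and the 6 complementary to bases 2 to 7, on the strand of the probe. A match is a description of these letters only. The 7-base match of miR-532-3p, GTGGGAG, stood in the brightest ADAM8 probe and in 0.411% of the 58201 probes, and ADAM8 was at -0.02 on that array. Its 6-base match, TGGGAG, which the longer one contains, stood in 2.16% of probes, the MMP14 probe among them, and MMP14 was at -0.46 there. The 6-base match of miR-140-3p, TGTGGT, stood in 2.01% of probes, the ADAM17 probe among them, and ADAM17 was at -0.32 there. The 30-base stretches of these probes are shown, with the match in capitals.
MMP14 probe: accctaagacctTGGGAGgaaaactcagag
ADAM17 probe: aaacagttcttgTGTGGTttggcccttctc
No member probe held a match of the 4 other miRNAs. Over all probes measured in both channels, those holding the 7-base match of miR-532-3p had a median log2 ratio of -0.11 (81 probes) against -0.0014 for all 19546, and 77.8% of them were below 0 against 50.4%. For the 6-base match of miR-532-3p the median was -0.06 (382 probes). For the 6-base match of miR-140-3p it was -0.01 (538 probes) against 0.01 for all 22697 probes measured on that array. The ADAM8 value thus lay above the median of probes with its match, and the MMP14 and ADAM17 values lay below the medians of probes with theirs. With median centring ADAM8 was at 0.15, MMP14 at -0.18 and ADAM17 at 0.15 on those arrays. The median of all measured genes then stood at 0.17 with miR-532-3p and 0.45 with miR-140-3p. Whether ADAM8, MMP14 or ADAM17 is a target was not tested.

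The rest of the protease system was described from lists of related genes. Of 34 other matrix metalloprotease and ADAM genes, 18 were well above background in the mocks of at least 2 lines. Of these, ADAM19, a sheddase of neuregulin, passed 1.0 on 1 array, with a log2 ratio of 1.14 with miR-532-5p, and read 0.59 with miR-140-5p and -0.06 with miR-532-3p. ADAM12 read 0.84 with miR-532-3p and 0.61 with miR-125b-1-3p, and 1.21 and 0.78 by the scanner's own ratio. ADAM15, which was measured on all 8 arrays, was lowest with miR-140-5p at -0.58, a value that turned to 0.19 with median centring. The median of all measured genes on that array then stood at 0.35. MMP17, a membrane-anchored protease, read 0.50 and 0.57 on the T24 arrays, and MMP9, gelatinase B, 0.49 and 0.56 on the 786-O arrays, the 5p strand first in both. By the scanner's own ratio MMP17 read 0.63 and 0.67 there, and MMP9 1.14 and 1.07, past 1.0. MMP13, collagenase 3, was measured in both channels in PC3 alone, at 0.03, 0.15 and 0.50 for 24 h bisamide, 48 h bisamide and miR-125b-1-3p. Each 786-O array detected it in 1 channel. For the 5p strand of miR-532 its raw intensity was 40.2 in mock cells against 18.6 in treated cells. The 3p strand gave 35.6 against 21.1. By the scanner's own ratio MMP13 read -3.25 and -2.07 there, the 5p strand first, with 1 channel not well above background. Of the remaining 12 of the 18, ADAM11 was below 0 on all 8 arrays, between -0.30 and -0.13. By the scanner's own ratio it was between -1.79 and -0.49. With median centring it was at 0.02 on the 24 h bisamide array, where the median of all measured genes then stood at 0.45. As reported, none of MMP11, MMP15, MMP16, MMP19, MMP23B, MMP24, MMP25, MMP28, ADAM20, ADAM22 and ADAM33 passed 0.5 in size on any array where both channels were measured. That depends on the processing. By the scanner's own ratio MMP11 read -1.07 with miR-140-5p and MMP24 -0.90 in C4-2. By the same ratio MMP28 read 0.72 in C4-2 and ADAM22 0.72 with miR-140-5p. With median centring MMP23B read 0.74 with miR-125b-1-3p.

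Inhibitors other than TIMP1 ran both ways. TIMP2, which also takes part in the opening of MMP2, read 0.89 in C4-2. In 786-O it read 0.37 for miR-532-5p and -0.43 for the 3p strand, and in T24 -0.49 for miR-140-5p and 0.16 for the 3p strand. RECK, a membrane-anchored inhibitor of metalloproteases, read 0.34 and 0.72 in 786-O for the 5p and 3p strands, 0.44 in C4-2, and -0.61 and 0.15 in T24 for the 5p and 3p strands. On the miR-140-5p array, where ADAM8 was at 1.96, MMP14 at 0.52 and TIMP1 at 0.48, TIMP2 and RECK were thus both below mock. On the bisamide arrays TIMP2 and RECK lay between -0.11 and 0.05. TIMP3 and A2M were below background everywhere. TIMP4 was measured on the 3 PC3 arrays, at 0.26, -0.04 and -0.09.

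Further lists held activators and partners, shed substrates, ADAMTS proteases, and AP-1 or ETS factors, which bind collagenase and stromelysin promoters. PLAU, the urokinase that activates plasmin, was at 1.23 with miR-125b-1-3p, and the miR-532-3p array gave -0.91 for it. With miR-532-3p, the shed substrates APP, ALCAM and CDH2 were at -1.26, -1.18 and -1.02, and the von Willebrand factor protease ADAMTS13 was at -1.03. ADAMTS13 was below 0 on all 8 arrays, between -1.03 and -0.29. With median centring it was at 0.15 and 0.25 on the bisamide arrays. The medians of all measured genes there then stood at 0.45 and 0.44. With miR-140-5p the ADAM10 substrate CD44 was at -1.48, and with miR-140-3p at -0.71, the latter turning to 0.28 with median centring. The median of all measured genes on the miR-140-3p array then stood at 0.45. FOS was at -1.12 with miR-199-3p. Over all lists of related genes, the other MMP, ADAM and inhibitor genes included, 62 were measured on the miR-532-3p array. Of these, 4, or 6.45%, were lower past 1.0 and none was higher, beside 0.641% of all genes past 1.0 in either direction. With median centring APP was at -0.66, ALCAM and ADAMTS13 at -0.83 and CDH2 at -0.53, while by the scanner's own ratio all 4 stayed past 1.0. The lists were chosen with earlier results of these data known, so nothing is read from this share or from those that follow. No gene of the lists passed 1.0 among the 67 measured on each bisamide array, beside 0.197% and 0.116% of all genes. With miR-532-5p it was 2 of 61, or 3.28%, both higher, beside 0.804% of all genes. With miR-125b-1-3p 1 of 65, or 1.54%, passed 1.0, beside 0.177%, and in C4-2 1 of 45, or 2.22%, beside 0.65%. None of 59 did so with miR-140-3p, beside 0.177%. On the miR-140-5p array 1 of 58, or 1.72%, did so, beside 0.443% of all genes. There PLAUR, the urokinase receptor, read 0.96 and HBEGF, a growth factor released by ADAM proteases, 0.86. HBEGF was at 0.22 and PLAUR at 0.44 with miR-140-3p.

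The genes whose log2 ratios over the 8 arrays were most like those of ADAM8, among 10317 genes measured on all 8, were HILPDA with a Pearson correlation of 0.974, MOB4 with 0.972 and TMEM41A with 0.970. HILPDA, a lipid droplet protein, was at 0.73 with miR-140-5p and between -0.28 and -0.05 elsewhere. Without the miR-140-5p array the correlations over 7 arrays were 0.62, 0.67 and 0.77, so they rest largely on that array, and the arrays within 786-O and within T24 may share their control RNA.

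**Figure D4:**
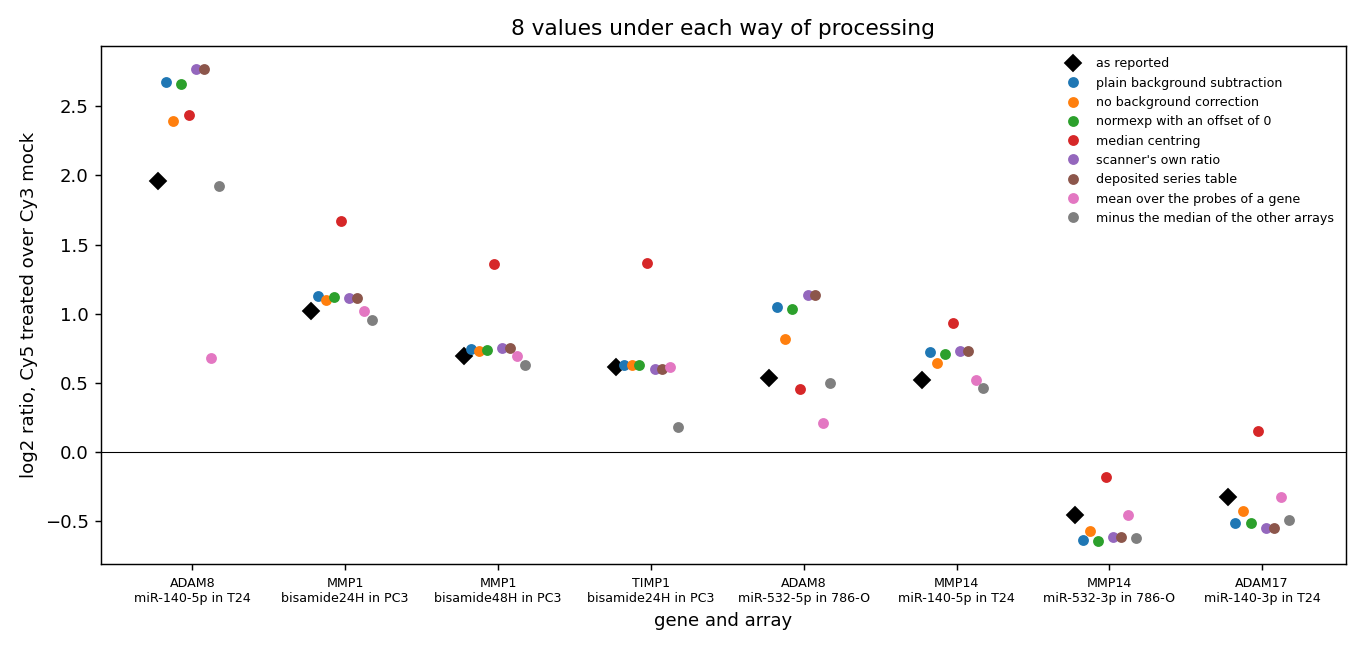
Log2 ratio of Cy5 (treated) over Cy3 (mock) on the vertical axis for 8 gene and array pairs, under each way of processing; the diamonds are the values as reported. ADAM8 with miR-140-5p lies between 1.92 and 2.77 except for the mean over its 3 probes, at 0.68, and MMP1 at 24 h of bisamide rises from 1.02 to 1.67 with median centring.

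The size of these values depended on the processing as the plot of 8 values under each way of processing shows. ADAM8 with miR-140-5p was 1.92 to 2.77 under all settings that keep its brightest probe. MMP1 at 24 h of bisamide was 1.02 as reported, 1.67 with median centring and 0.96 to 1.13 otherwise. Median centring also moved MMP1 at 48 h from 0.70 to 1.36, TIMP1 on the bisamide arrays to 1.37 and 1.34, and MMP14 at 24 h from 0.34 to 0.88. With miR-532-3p, MMP1 ran from -0.79 by the scanner's own ratio to -0.25 with median centring, while MMP2 reached 0.59 and ADAM10 0.57.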

How the data were processed

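RNA of treated and of mock cells was hybridised to 8 Agilent two-colour arrays, and the authors deposited the scanner output of Feature Extraction 11.5.1.1 with raw spot intensity per channel and its own log10 ratio; a deposited series table held the same ratios. Per the file headers and the labels, Cy3 was mock and Cy5 treated. The raw intensities were background-corrected (limma 3.58.1 in R 4.3.3, normexp, offset 50) and loess-normalized within arrays with control spots at weight 0. Flagged outlier spots were dropped, 126 to 181 per array, and spots of a probe were averaged. The probe brightest over the 8 arrays stood for a gene. A value was measured where at least 0.5 of its spots were well above background in both channels. For members with 1 channel, a lower bound was worked out. Mock levels were normexp Cy3, quantile-normalized. The normalization was tested on simulated data. Alternatives were other backgrounds, median centring, the scanner's ratio, filters, probe averaging and a size of 1.0. The members and lists were chosen with earlier results of these data known. Genes were named by a fixed rule: all members, list genes past 1.0 (at most 5 per side and array), MMP and ADAM genes detected in mocks of 2 or more lines, and the 3 most correlated with ADAM8. TIMP2, TIMP3, TIMP4, RECK, A2M, PLAUR and HBEGF were named after their values were seen. No annotation of the files' build (GRCh37) was used, so exons and UTRs are not given. Some genes of the marker and related lists are not reported here.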

Additional observations from a re-analysis of the deposited data

Results flagged for a closer look

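Members with opposite signs on both arrays of one line, each over 0.1 in size, are given here. MMP14 differed by 0.706 in 786-O (0.25 for miR-532-5p, -0.46 for the 3p strand), and by 0.301 to 0.997 across the alternatives. ADAM10 differed by -0.318 in T24 (-0.10 for miR-140-5p, 0.22 for the 3p strand), and by -0.400 to -0.318 across the alternatives, with both values positive under median centring (0.35 and 0.75). The medians of all measured genes then stood at 0.35 and 0.45 on those arrays. The MMP14 and ADAM10 differences were not tested, since each group holds 1 array.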

How the results depend on the processing

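The count of members past 1.5 was the same under every alternative except 3. At 24 h of bisamide it was 1 instead of 0 with median centring (MMP1 at 1.67) and 1 with the size of 1.0. With miR-140-5p it was 0 instead of 1 when all probes of a gene were averaged. Of the 48 measured values, 9 changed sign with median centring and 12 when the median of the other arrays was subtracted, 2 of the latter over 0.4 in size as reported; the other alternatives changed 0 to 2. Median centring moved the median of all measured genes to between -0.03 and 0.45. The count of members over 2 apart between lines was 4 as reported. It was 5 with the scanner's scaled signal, 5 without background correction, 3 with the mean over probes and 5 with a difference of over 1. The shares of all genes were 39.4%, 14.2%, 6.09% and 29.2% in that order. Since the mock levels chose the members in part, nothing is read from these counts against these shares. No paired analysis was possible because no group has more than a single array. Signal over background limits MMP2, MMP3, MMP10 and ADAM9, and, in C4-2 and T24, MMP1.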
